A study of Canis lupus familiaris with 17 samples.

Results

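Granzyme A (GZMA), granzyme B (GZMB), granzyme K (GZMK), perforin (PRF1) and cathepsin W (CTSW) were the genes described here, 5 of the 20257 genes counted. They were chosen by symbol from the feature names of all 17 count matrices, and each symbol matched a single feature (GZMA, ENSCAFG00000006735; GZMB, ENSCAFG00000025287; GZMK, ENSCAFG00000018379; PRF1, ENSCAFG00000014071; CTSW, ENSCAFG00000013168). Circulating leukocytes of 17 dogs of wild-type genotype, isolated as primary cells on a density gradient, were profiled by 10x Genomics 3′ single-cell RNA sequencing. Of these, 7 were clinically healthy, client-owned, middle-aged dogs, and 10 were middle-aged to old dogs with osteosarcoma (OS) that still had the primary tumor and had received no treatment. The groups therefore differed in age as well as in disease, and these cannot be told apart here. The density gradient of dog blood holds neutrophils beside the mononuclear cells.

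Cytotoxic lymphocytes kill by releasing the content of secretory granules onto a target cell. Perforin is the protein that forms pores in the target membrane, and granzymes are serine proteases that enter through these pores. Granzyme B cleaves its substrates after aspartate and starts apoptosis, while granzymes A and K are tryptase-like proteases. Cathepsin W is a cysteine protease of the papain family that is known from NK cells and cytotoxic T cells. The granzymes belong to a multigene family, and whether reads were split between similar copies was not tested.

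Matrices held 93013 cell barcodes, between 1332 and 7748 per dog, with between 7740230 and 56510134 unique molecular identifiers (UMIs) per dog. After limits on genes, UMIs and mitochondrial counts, removal of 3718 doublets and removal of platelet, erythrocyte and mixed clusters, 76142 cells were kept with a median of 5411 UMIs. Any pair of dogs shared between 0 and 22 cell barcodes, at most 0.375% of the smaller library. T and NK cell clusters held 44134 lymphocytes. Of these, 41774 had a UMI of CD3E, the T cell receptor component used to mark T cells (CD3E-positive, 773 to 4392 per dog), and 2360 had none (CD3E-negative, 56 to 357 per dog). Because a T cell can miss its CD3E UMI by chance of sampling, 1382 CD3E-negative cells that also lacked CD3D and CD3G (CD3-negative, 25 to 233 per dog) were taken as a narrower set. CD3E-positive cells with a CD8A UMI and no CD4 UMI numbered 7539, and those with CD4 and no CD8A numbered 13289. Levels were UMIs summed over the cells of a dog and given as CPM, in which every sum is scaled to the same total. In such sums, fewer cells of a type and less RNA per cell cannot be told apart.

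Clusters were formed without the 5 genes and named from marker lists, so a name means a resemblance. Most UMIs of granzymes A and B and perforin lay in CD8 effector-like T cells, with a further part in NK cell-like cells. CD8 effector-like cells made up 13.05% of the kept cells and held 85.9% of all GZMA UMIs, 84.9% of GZMB UMIs and 82.1% of PRF1 UMIs. Their shares of GZMK UMIs (52.3%) and of CTSW UMIs (49.6%) were smaller. NK cell-like cells, 0.556% of the kept cells, held 8.18% of GZMA, 5.12% of GZMB and 5.76% of PRF1 UMIs. A cycling-like cluster of 226 cells, 0.297% of the kept cells, held 1.44% of GZMA, 2.27% of GZMB and 0.90% of PRF1 UMIs. The following levels by class are a description, since classes came from the same cells.

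**Figure D1:**
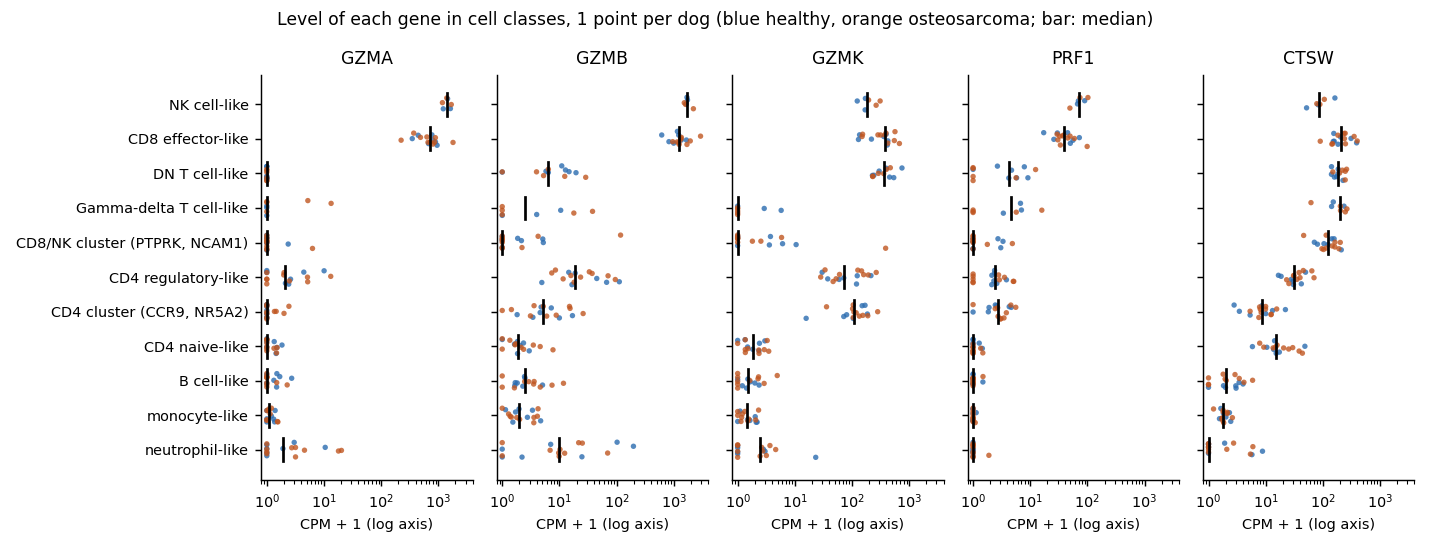
Levels of the 5 genes in 11 leukocyte classes, with 1 point per dog (healthy in blue, OS in orange) and the median as a bar. The horizontal axis is CPM + 1 on a log scale, and the classes are listed on the vertical axis. GZMA, GZMB and PRF1 sit high in the NK cell-like and CD8 effector-like classes, while GZMK and CTSW also sit high in DN T cell-like cells.

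GZMA reached between 1181 and 1688 CPM (median 1430) in the NK cell-like cells of the 6 dogs with at least 25 such cells. In CD8 effector-like cells of 17 dogs GZMA ran from 223 to 1810 CPM (median 725), so these classes overlapped, and the highest CD8 effector-like value came from OS dog 9. T/NK cells with platelet RNA followed at a median of 143 CPM in 11 dogs. That class joined a cluster formed among the CD4 cells (511 cells) and one formed among the CD8/NK cells (178 cells). In the summed cells of the CD8/NK one GZMA had 764 CPM, so the class is not read as cells of an intermediate level. An unnamed cluster led by TRPM3, HDAC9 and NRXN3 had a median of 71.5 CPM in 8 dogs. That cluster was formed among the CD4 cells, but its top 10 genes held the CD8 effector markers TRPM3 and IL12RB2. Of its 503 cells, 242 were CD3E-positive and 232 CD3-negative, so it is not read as CD4 T cells. Each other class with a median over dogs reported here had at most 1.12 CPM of GZMA in that median. Double-negative (DN) T cell-like cells had no GZMA UMI in 13 dogs, 0 of 4259377 UMIs, which allows up to 0.704 CPM. That limit, and others given for a count of 0, covers counting error only.

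GZMB had the same leading classes, with 1529 to 2210 CPM (median 1684) in NK cell-like cells and 616 to 2947 CPM (median 1243) in CD8 effector-like cells. The CD8 effector-like range did not overlap that of the next class ordered here by its median, the TRPM3-led cells, at 280 CPM. CD4 regulatory-like cells had 17.9 CPM of GZMB in the median dog (3.93 to 111, 17 dogs), and DN T cell-like cells 5.41 CPM (0 to 27.9, 13 dogs). The CD4 regulatory-like class joined 2 clusters, one of 1748 cells with IL2RA and CTLA4 among its top 10 genes, and one of 1534 cells with 5 of 6 regulatory markers raised but none in its top 10, which DBX2, GNG3 and NRP1 led.

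GZMK was not led by the NK cell-like cells. CD8 effector-like cells (median 376 CPM, 129 to 675, 17 dogs) and DN T cell-like cells (median 358 CPM, 227 to 749, 13 dogs) overlapped. NK cell-like cells stood below them at 182 CPM (123 to 310). GZMK also ran at a median of 107 CPM (14.8 to 281, 17 dogs) in a CD4 cluster led by CCR9, NR5A2 and ANO4, which alone held 10.8% of all GZMK UMIs, and at 70.8 CPM (27.4 to 265) in CD4 regulatory-like cells.

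PRF1, the pore protein, was counted at low levels. NK cell-like cells had 48.4 to 101 CPM of PRF1 (median 70.9, 6 dogs) and CD8 effector-like cells 16.2 to 98.0 CPM (median 37.7, 17 dogs). The T/NK cells with platelet RNA (median 19.4 CPM) and the TRPM3-led cells (16.7 CPM) followed. In the CD8/NK cluster with platelet RNA alone, PRF1 had 44.7 CPM in the summed cells. DN T cell-like cells had a median of 3.22 CPM of PRF1, and each of the first 4 classes in this order overlapped in range with the next one named.

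CTSW, the cysteine protease, was highest in CD8 gamma-delta-like cells, a cluster of 237 cells with 607 CPM in the summed cells and 842 and 588 CPM in OS dogs 5 and 6, the dogs with enough of them for a value. NK T cell-like cells, 122 in all, had 308 CPM in the summed cells. Among larger classes, medians were 203 CPM (89.1 to 399, 17 dogs) in CD8 effector-like cells, 202 CPM (61.1 to 263, 8 dogs) in gamma-delta T cell-like cells and 185 CPM (141 to 259, 13 dogs) in DN T cell-like cells, and these ranges overlapped. The gamma-delta T cell-like class joined 2 clusters, with 219 CPM of CTSW in the summed cells of one (373 cells) and 33.6 CPM in those of the other (122 cells). CTSW was at 167 CPM (39.8 to 218, 16 dogs) in unnamed CD8/NK cells led by DLA-DOA, STBD1 and GNMT, and at 122 CPM (45.2 to 209, 17 dogs) in those led by PTPRK, STBD1 and NCAM1, 2 classes in which the median dog had no UMI of GZMA or GZMB. NK cell-like cells had 84.8 CPM of CTSW (51.0 to 162, 6 dogs), below the medians of all of these classes. CD4 naive-like cells had a median of 14.3 CPM.

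For shares of cells with a UMI, each cell was thinned at random to 2000 UMIs, which left out 437 CD3E-positive and 626 CD3E-negative cells as too shallow. In NK cell-like cells of the median dog, GZMA was detected in 88.1% and GZMB in 88.0%, against GZMK in 31.7%, PRF1 in 12.2% and CTSW in 13.4%. In CD8 effector-like cells these shares were 51.3% for GZMA (18.1 to 90.7% over 17 dogs), 74.9% for GZMB, 48.6% for GZMK, 8.12% for PRF1 and 29.6% for CTSW. DN T cell-like cells had GZMK in 35.6% and CTSW in 29.6% of cells in the median dog, with GZMB in 9 and GZMA in 0 of 813 cells (up to 0.369%). Gamma-delta T cell-like cells had CTSW in 26.3% and neither GZMA nor GZMK in any of 379 cells (up to 0.792%). As a background, B cell-like cells (median 4018 UMIs before thinning) had GZMA in 4, GZMK in 6 and PRF1 in 1 of 6680 cells, and median shares of 0.245% for GZMB and 0.218% for CTSW. Monocyte-like cells (median 11192 UMIs) had a median share of 0.188% for GZMB.

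CD8A-positive and CD4-positive T cells of the same dogs were compared to ask which T cell lineage carried each gene. All 5 genes were higher in CD8A-positive cells in 17 of 17 dogs, and for GZMA, GZMB, PRF1 and CTSW the ranges did not overlap. In CD8A-positive cells GZMA ran from 170 to 1616 CPM (median 469), against 0 to 24.8 CPM (median 1.13) in CD4-positive cells. Every CD8A-positive value lay above every CD4-positive value. For GZMB, the CD8A-positive range was 348 to 2693 CPM (median 883) and the CD4-positive range 1.22 to 51.0 CPM (median 7.11), again without overlap. PRF1 had 10.1 to 86.4 CPM (median 28.5) against 0 to 7.68 CPM (median 0.790), and these ranges did not overlap either. CTSW ran from 123 to 384 CPM (median 220) against 6.86 to 23.9 CPM (median 15.9), with a wide gap between the ranges. GZMK, at 92.6 to 512 CPM (median 270) against 8.75 to 139 CPM (median 54.1), was the member whose ranges overlapped.

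With edgeR's quasi-likelihood test and dog as a block, 2056 of 14354 genes passed an adjusted p of 0.01 and an absolute log2 fold change of 0.58, 14.3% of those tested, with 1079 (7.52%) higher and 977 (6.81%) lower in CD8A-positive cells. All 5 genes were among the higher ones. The log2 fold change was 7.65 for GZMA (SE 0.29, adjusted p = 1.19e-16), 6.68 for GZMB (SE 0.27, adjusted p = 5.42e-16) and 4.67 for PRF1 (SE 0.30, adjusted p = 1.71e-12). It was 3.76 for CTSW (SE 0.11, adjusted p = 6.01e-19) and 2.58 for GZMK (SE 0.22, adjusted p = 2.97e-10). The difference for GZMK was the smallest of the 5 as fitted, and differences between the genes in their fold were not tested. An interaction of this contrast with disease was called for 0 of the 5 genes and for 0 genes in all (edgeR, adjusted p = 1 for each of the 5).

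**Figure D2:**
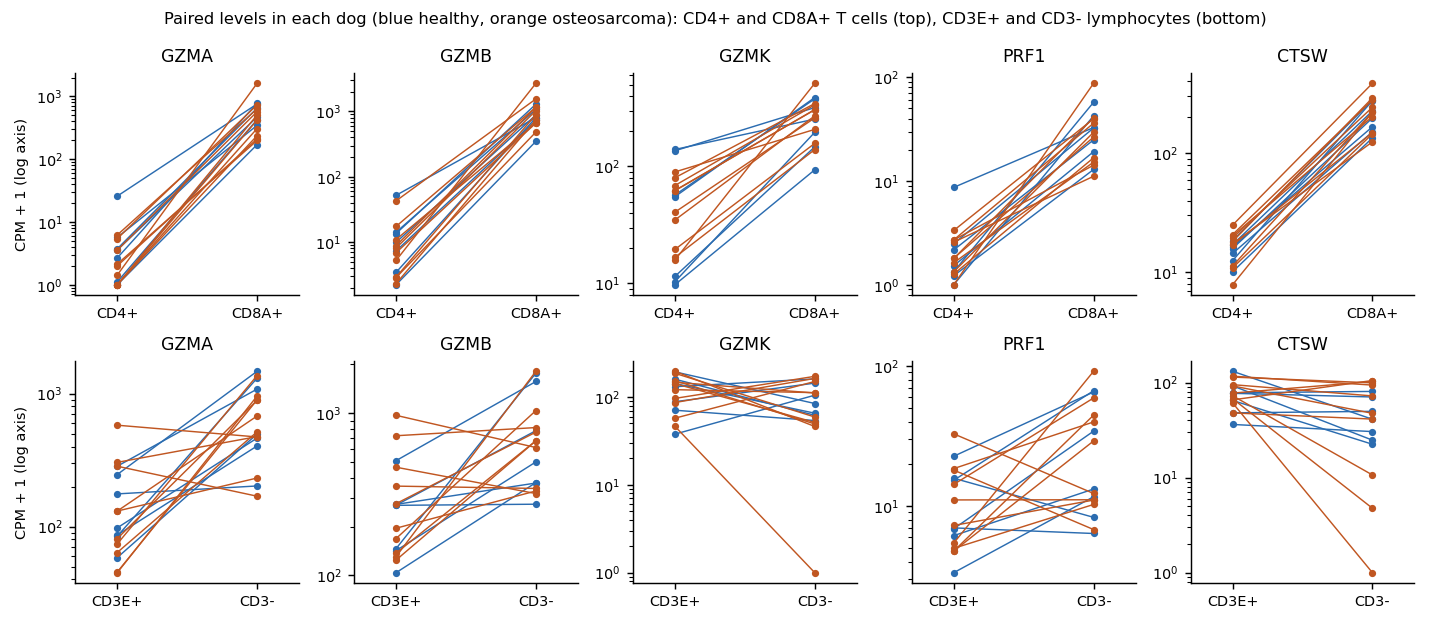
Levels per dog in CPM + 1 on a log axis, with a line joining the values of each of the 17 dogs, for CD4-positive against CD8A-positive T cells (top) and CD3E-positive against CD3-negative lymphocytes (bottom). All lines rise toward the CD8A-positive cells, whereas toward the CD3-negative cells most lines of GZMA, GZMB and PRF1 rise and most of GZMK and CTSW fall.

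Of 28 other genes of cytotoxic granules, their release and death ligands, 9 were higher and 5 lower in CD8A-positive cells and 14 passed neither way, with a median log2 fold change of 0.23 against -0.02 for all genes tested. The chemokines CCL5 (log2 fold change 5.83) and CCL4 (5.01), SYTL2, which takes part in granule docking (4.19), and the death ligand FASLG (4.11) were higher. SERPINB1 (-1.96), an inhibitor of serine proteases, and the lysosomal proteases CTSH (-1.53), CTSB (-1.13) and CTSC (-0.88) were lower. Cathepsin C is the enzyme known to activate granzymes by removal of a dipeptide. LYST (-0.54), which acts in lysosome and granule trafficking, and the granule membrane protein CD63 (0.50) did not pass the fold threshold.

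Among 18 transcription factors known to act in cytotoxic or resting T cells, 7 were higher, 5 were lower and 6 passed neither way, with a median log2 fold change of 0.42. ZEB2 (5.05), EOMES (4.23), TBX21 (3.77) and RUNX3 (1.87), factors of effector differentiation, were higher in CD8A-positive cells. LEF1 (-1.54), BACH2 (-1.32) and ID3 (-1.22), which are linked to naive or memory cells, and IRF4 (-1.45) were lower. PRDM1 had a log2 fold change of 0.01 and TOX of -0.19, and both missed the test.

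A small number of cells held much of the GZMA and GZMB that CD4-positive T cells carried. CD4-positive cells in CD8 effector-like clusters numbered 173, of which 97 came from healthy dog 7 and 21 from OS dog 1. They held 150 of the 200 GZMA UMIs (75%) and 395 of the 816 GZMB UMIs (48.4%) of the CD4-positive cells, against 20 of 85 for PRF1 (23.5%), 471 of 4015 for GZMK (11.7%) and 23 of 1257 for CTSW (1.83%). Without healthy dog 7 these shares were 65.9% for GZMA, 39.3% for GZMB, 9.52% for PRF1 (6 of 63), 6.80% for GZMK and 1.07% for CTSW. For GZMK the largest source was the CCR9-led CD4 cluster, with 1416 UMIs (35.3%). The share of CD4-positive cells with GZMA after thinning, 0.189% in the median dog (0 to 2.20%), lay in that dog within the range of B cell-like cells (up to 0.538%). GZMK was found in 3.49% of CD4-positive cells in the median dog (1.05 to 18.2%), and no dog had it in more than 0.699% of B cell-like cells.

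CD3-negative and CD3E-positive lymphocytes were compared to ask how the genes differ between NK cells and T cells. Both hold mixtures, and only 22.5% of CD3-negative cells (311) lay in the NK cell-like cluster, while 44.4% (614) lay in a CD4 cluster led by CCDC3, TSHZ2 and IGF1R with a median of 2850 UMIs and 16.8% in the TRPM3-led cluster with a median of 2443. The median depth was 2522.5 UMIs in CD3-negative and 5438.5 in CD3E-positive cells. All 10 NK cell markers were higher in the CD3-negative cells (summed level 1767 against 460 CPM), as were 11 of 11 monocyte markers (139.9 against 91.0 CPM), 6 of 9 B cell markers without CD79A (63.5 against 21.9 CPM) and 8 of 13 neutrophil markers without S100A8 (79.9 against 89.5 CPM), and 4 of 4 platelet markers (45.8 against 30.7 CPM). The median mitochondrial share was 5.02% in the CCDC3-led and 4.59% in the TRPM3-led cells, against 3.36% in NK cell-like and 2.80% in CD8 effector-like cells. The part of depth and of these other cells in the differences was not tested. NK cell-like cells held 90.6% of the GZMA, 87.7% of the GZMB, 84.5% of the PRF1, 74.5% of the GZMK and 52.2% of the CTSW UMIs of CD3-negative cells.

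GZMA in CD3-negative cells ran from 168 to 1472 CPM (median 515), against 44.0 to 578 CPM over all 17 dogs in CD3E-positive cells. It was higher in 15 of 17 dogs although the ranges overlapped. GZMB had 274 to 1816 CPM (median 676) against 103 to 971 CPM and was higher in 14 dogs. PRF1 had 5.37 to 90.7 CPM (median 12.2) against 2.35 to 31.8 CPM and was higher in 13 dogs. GZMK (0 to 171 CPM, median 83.4, against 36.8 to 196 CPM) was higher in 6 dogs and CTSW (0 to 104 CPM, median 46.6, against 35.3 to 131 CPM) in 4 dogs only, so these genes ran the other way in most dogs.

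By edgeR with dog as a block, 3046 of 15212 genes passed both thresholds (20%), 620 of them higher (4.08%) and 2426 lower (15.9%), and the median log2 fold change of all genes was -0.28. GZMA was higher in CD3-negative cells by a log2 fold change of 1.93 (SE 0.31, adjusted p = 4.58e-06), GZMB by 0.97 (SE 0.26, adjusted p = 0.00333) and PRF1 by 1.20 (SE 0.34, adjusted p = 0.00482). CTSW was lower (log2 fold change -1.03, SE 0.19, adjusted p = 5.34e-05), and GZMK did not pass (-0.69, SE 0.23, adjusted p = 0.0161). Relative to the median of all genes the values were 2.20 for GZMA, 1.25 for GZMB, 1.48 for PRF1, -0.76 for CTSW and -0.41 for GZMK. PRF1 lost its call without healthy dog 3 (log2 fold change 1.11, adjusted p = 0.0151), healthy dog 7 (1.15, 0.0114), OS dog 2 (1.12, 0.0110), OS dog 3 (1.20, 0.0113) or OS dog 6 (0.91, 0.0210), and GZMK gained one without OS dog 6 (-0.84, adjusted p = 0.00260) and with doublets kept (-0.74, adjusted p = 0.00844). With the 3 shallow T/NK clusters left out, a choice made after seeing the data that left 8 dogs, GZMA (2.81), GZMB (2.26) and PRF1 (2.32) stayed higher, while CTSW lost its call (-0.17, adjusted p = 0.617) and GZMK changed sign without passing (0.38, adjusted p = 0.249). Another gate took cells of any cluster with a UMI of T or NK cell markers. It kept only 2808 cells, whose UMIs of B cell and myeloid markers did not exceed those T and NK cell UMIs. With this gate the signs of GZMA, GZMB and PRF1 turned. GZMB (-1.57, adjusted p = 0.000826) and GZMK (-2.16, adjusted p = 1.5e-06) were called lower there, while GZMA (-1.31, adjusted p = 0.0240) and PRF1 (-0.75, 0.371) did not pass. CD79A was counted in 99.0% of CD3E-positive cells at a mean of 49.5 UMIs per cell, against 27.2 in B cell-like cells, and S100A8 in 77.2%, so that gate dropped nearly all T cells as well and its signs are not read as the effect of removing B cell or myeloid RNA. With CD79A and S100A8 taken off that marker list (also chosen after seeing the data) GZMA was called higher again (1.78), GZMB (0.84, adjusted p = 0.0252) and PRF1 (1.06, 0.0219) missed the threshold, and GZMK was called lower (-0.85, adjusted p = 0.00937). Without the dog block GZMB (adjusted p = 0.0132) and PRF1 (0.0103) missed it as well.

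Among the 28 granule genes, 4 were higher, 10 lower and 14 passed neither way in CD3-negative cells (median log2 fold change -0.18). CCL3 (1.58), SYTL2 (1.53), FASLG (1.13) and STX11 (0.64), a syntaxin needed for granule release, were higher. SERPINB1 (-1.88), CTSH (-1.46), SERPINB6 (-1.44) and CTSC (-1.11) were lower, and CCL5 had a log2 fold change of 0.19 (adjusted p = 0.721). Of the 18 transcription factors, 5 were higher, among them ZEB2 (1.42), EOMES (1.21), RUNX3 (1.14) and IKZF2 (1.11), and 2 were lower, ID3 (-2.99) and HOPX (-1.08). The median over the factors was 0.22.

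Within CD3E-positive lymphocytes thinned to 2000 UMIs, 9 of the 10 pairs of the 5 genes were found in the same cell more often than the product of their shares gives in 17 of 17 dogs, and PRF1 with CTSW in 16. The log2 odds ratio was highest for GZMA with GZMB, at 6.01 in the median dog (4.50 to 8.81), where 7.51% of cells had both and 1.70% would by that product. GZMB with PRF1 followed at 3.99 (1.70 to 5.19), then GZMA with PRF1 (3.56), GZMB with GZMK (3.45), GZMA with GZMK (2.60) and GZMK with PRF1 (2.47). Pairs with CTSW were lower, from 1.399 with PRF1 to 2.29 with GZMB. Of CD3E-positive cells with GZMA, 85.3% also had GZMB in the median dog (75.3 to 97.1%), against 6.87% of cells without GZMA. The reverse was less complete, as 58.4% of cells with GZMB had GZMA (23.0 to 88.6%).

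In CD3E-negative lymphocytes (1734 thinned cells) GZMA and GZMB again stood together, with a log2 odds ratio of 5.72 in the median dog (1.14 to 7.94) above 0 in 17 dogs. Here 87.5% of cells with GZMA had GZMB and 83.9% of those with GZMB had GZMA, in the 14 dogs with at least 10 such cells. The median log2 odds ratio was 2.60 for GZMB with GZMK (202 cells with both), 2.93 for GZMB with PRF1 (68 cells) and 0.96 for GZMA with CTSW (81 cells). PRF1 was found in 81 of these cells and in no cell of 3 dogs, and because 0.5 was added to each count, a dog without any cell of a gene can still get a value above 0. All 5 genes were found together in 60 of 41337 CD3E-positive cells and in 5 of 1734 CD3E-negative cells, and none of the 5 in 70.6% (49.3 to 81.2%) and 59.3% of cells in the median dog.

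Within CD8A-positive cells and within CD8 effector-like cells the median odds ratios of all 10 pairs were smaller. In CD8A-positive cells the log2 odds ratio of GZMA with GZMB was 3.19 (above 0 in 17 dogs), that of GZMB with PRF1 1.65 and that of GZMB with GZMK 1.64, while pairs with CTSW lay between 0.02 and 0.18. Within CD8 effector-like cells GZMA with GZMB kept 1.57 (0.79 to 2.38, above 0 in 17 dogs), and the other 9 pairs had medians between -0.23 and 0.34. Values within this class are a description, since the class was formed from other genes of the same cells.

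**Figure D3:**
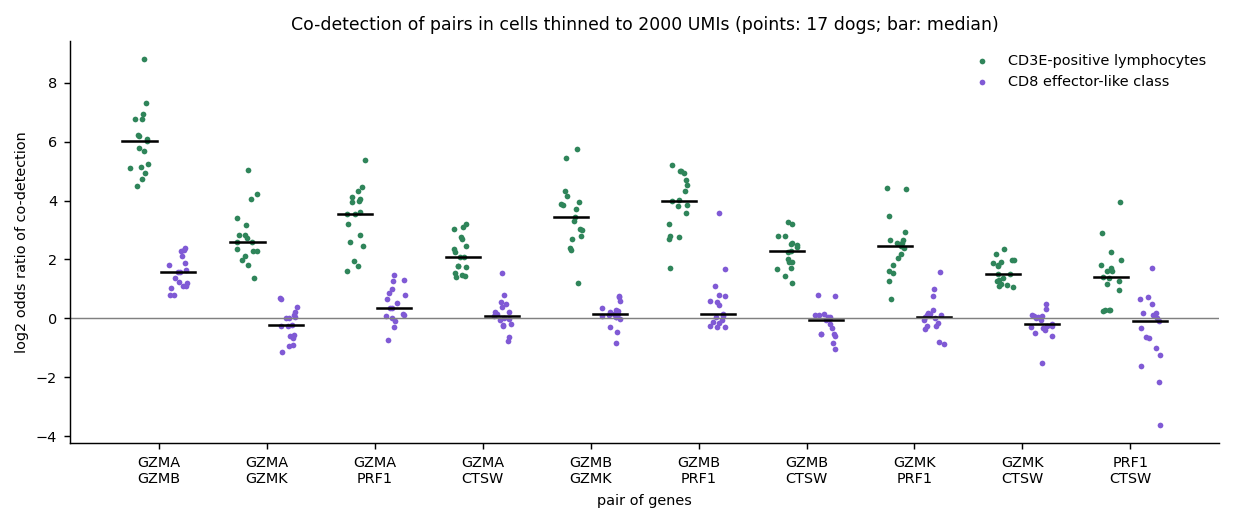
Log2 odds ratio of finding both genes of a pair in the same cell, per dog (17 dogs), in CD3E-positive lymphocytes (green) and in CD8 effector-like cells (purple), in cells thinned to 2000 UMIs. All pairs lie above 0 in CD3E-positive lymphocytes, and within CD8 effector-like cells the pair of GZMA and GZMB stands above the other 9, whose medians lie near 0.

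In the 13 dogs with at least 25 thinned CD3-negative cells (778 in all), the exact sign-flip permutation test against CD3E-positive cells passed for 1 of 10 pairs, GZMB with PRF1. Its log2 odds ratio had a mean difference of -2.39 (lower in 12 of 13 dogs, p = 0.000977, adjusted p = 0.00977 over the 10 pairs). Of the CD3-negative cells, 45 had PRF1 and 34 had both genes. No cell had PRF1 in 2 of the dogs and none had both in 5, and there the value rests in part on the 0.5 added to each count. How far this moved the difference was not tested, and the result is not read as a difference between these cells. GZMB with GZMK (mean difference -1.60) and GZMA with PRF1 (-1.24) each had an adjusted p of 0.103. The count of 1 pair became 0 without thinning, 2 at 1000 UMIs, 2 without healthy dog 4 or without OS dog 4, and 7 without the 3 shallow clusters.

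The states of GZMB and GZMK differed most between DN T cell-like cells and the CD8 effector-like and NK cell-like cells. In CD8 effector-like cells of the median dog, 40.3% had GZMB only, 34.6% had both and 8.57% had GZMK only. NK cell-like cells had 59.6% with GZMB only, 26.3% with both and 5.05% with GZMK only. GZMB only ran from 26.4 to 63.5% over dogs in CD8 effector-like cells and from 43.8 to 68.8% in NK cell-like cells. These classes overlapped in range, as they did for both genes and for GZMK only. DN T cell-like cells showed the opposite state, with GZMK only in 290 of 813 cells, GZMB only in 4 and both in 5. CD4-positive cells had 2.83% with GZMK only, 0.488% with GZMB only and 0.249% with both, and CD4 regulatory-like cells 4.63%, 1.98% and 0.866%. In B cell-like cells 0.245% had GZMB only and 0 of 6680 had both (up to 0.0449%).

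**Figure D4:**
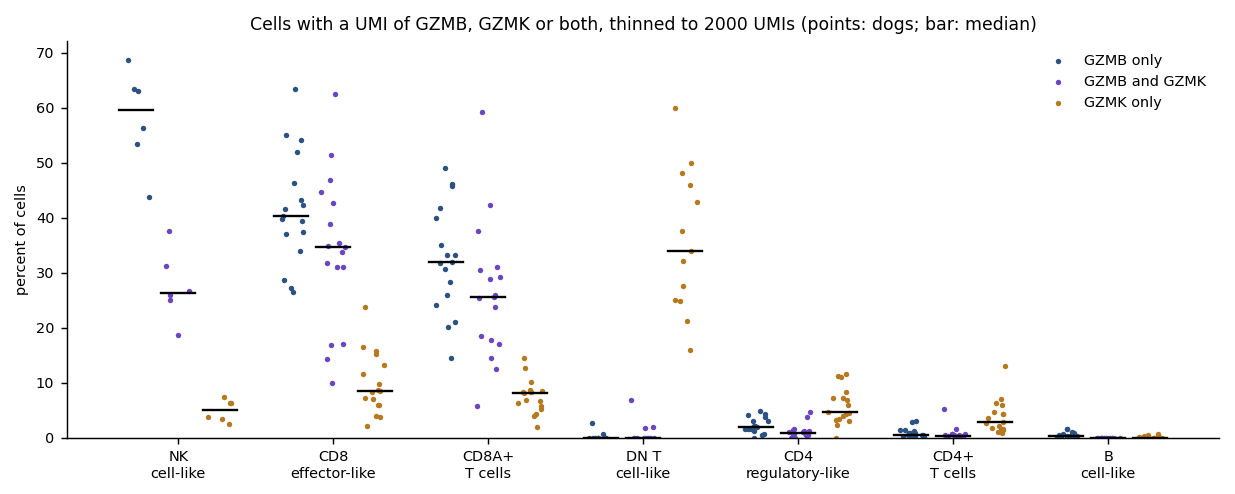
Percent of cells per dog with GZMB only, with both GZMB and GZMK and with GZMK only, in 7 groups of cells thinned to 2000 UMIs. By the median over dogs, GZMB only is the commonest of these states in NK cell-like and CD8 effector-like cells, whose ranges overlap. GZMK only is the commonest in DN T cell-like cells, and B cell-like cells lie near 0.

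Healthy dogs and dogs with OS were compared in CD3E-positive lymphocytes, in CD3E-negative lymphocytes and in all leukocytes. No difference was called for any of the 5 genes, and dogs of the same group differed widely. In CD3E-positive cells GZMA ran from 57.4 to 283 CPM (median 96.8) in healthy dogs and from 44.0 to 578 CPM (median 105) in dogs with OS. The groups overlapped, with OS dogs 2 and 5 below and OS dogs 1 and 9 above every healthy dog, and OS dog 9 stood highest. GZMB ran from 103 to 510 CPM (median 270) and from 124 to 971 CPM (median 236), with healthy dog 5 and OS dog 9 highest in their groups. GZMK had 36.8 to 193 CPM (median 130) and 45.5 to 196 CPM (median 131), and PRF1 2.35 to 21.7 CPM (median 5.99) and 3.77 to 31.8 CPM (median 8.17). The ranges overlapped, and the highest PRF1 value, in OS dog 9, lay above that of every healthy dog. CTSW had 35.3 to 131 CPM (median 76.3) and 47.1 to 116 CPM (median 74.3).

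In CD3E-negative cells the ranges of the groups again overlapped for each gene. GZMA had 189 to 939 CPM (median 351) in healthy dogs and 124 to 912 CPM (median 464) in dogs with OS, and GZMB 256 to 1298 CPM (median 397) and 240 to 1303 CPM (median 590). GZMK had 51.0 to 147 CPM (median 75.0) and 19.99 to 201 CPM (median 132), PRF1 4.88 to 52.1 CPM (median 10.5) and 6.28 to 64.8 CPM (median 25.7), and CTSW 27.4 to 97.8 CPM (median 71.6) and 29.0 to 104 CPM (median 73.9). The medians of all 5 lay higher in OS in these cells, within the spread of dogs.

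**Figure D5:**
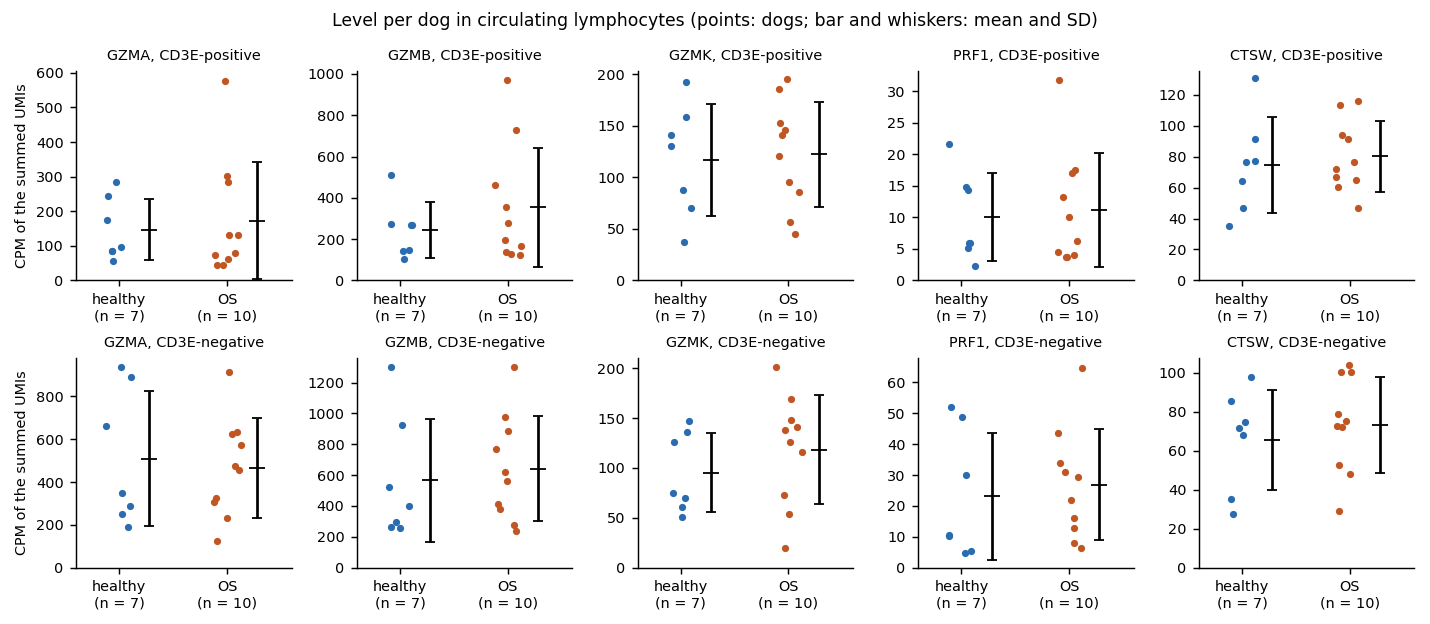
Levels in CPM of the 5 genes in CD3E-positive and CD3E-negative lymphocytes, with 1 point per healthy dog (n = 7) and per dog with OS (n = 10) and the mean ± SD. The groups overlap in every panel, and single dogs reach 578 CPM for GZMA and 971 CPM for GZMB in CD3E-positive cells of dogs with OS.

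By edgeR's quasi-likelihood test 0 of 15182 genes were called in CD3E-positive cells (0%, with 497 at an unadjusted p below 0.05), 0 of 10769 in CD3E-negative cells (0%, with 575) and 0 of 16252 in all leukocytes (0%, with 916). DESeq2 called 3 genes in all leukocytes, none of them a member, and 0 in both sets of lymphocytes. The log2 fold change of OS over healthy in CD3E-positive cells was 0.55 for GZMB (SE 0.44, 95% interval -0.39 to 1.49) and 0.25 for GZMA (SE 0.50, -0.83 to 1.32). It was 0.18 for PRF1 (SE 0.48), 0.12 for CTSW (SE 0.24) and 0.06 for GZMK (SE 0.33), with an adjusted p of 0.999 for all 5. In CD3E-negative cells the largest was 0.43 for GZMK (SE 0.29, adjusted p = 0.928), and GZMA had -0.08 (SE 0.33, adjusted p = 0.984). The 95% intervals of GZMA, GZMB and PRF1 in CD3E-positive cells, and of GZMK and PRF1 in CD3E-negative cells, included a log2 fold change of 1. Left out in turn, single dogs moved the log2 fold change of GZMA in CD3E-positive cells between -0.21 (without OS dog 9) and 0.47 (without healthy dog 5), and that of GZMB between 0.23 and 0.81 without the same dogs. In CD3E-negative cells GZMB ran from 0.04 to 0.60 and PRF1 from 0.02 to 0.72, without OS dog 6 and healthy dog 5.

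Shares of thinned cells were compared in the same way. In CD3E-positive cells the median share of healthy dogs and dogs with OS was 9.07 and 9.62% for GZMA, 19.8 and 17.2% for GZMB, 13.9 and 13.7% for GZMK, 1.39 and 1.85% for PRF1 and 11.5 and 12.0% for CTSW. In CD3E-negative cells it was 22.3 and 27.4% for GZMA, 23.5 and 31.8% for GZMB, 18.2 and 13.4% for GZMK, 2.27 and 4.04% for PRF1 and 7.95 and 11.01% for CTSW. None of the 10 comparisons passed the exact two-sided rank-sum test (smallest p = 0.103, for CTSW in CD3E-negative cells, adjusted p = 0.887 for all). Co-detection did not pass either, and the smallest p was that of GZMB with GZMK in CD3E-positive cells (median log2 odds ratio 3.01 in healthy dogs and 3.93 in OS, exact rank-sum test, p = 0.0702, adjusted p = 0.702). Of the other granule genes and the transcription factors, 0 of 28 and 0 of 18 were called in CD3E-positive cells and in all leukocytes, and 0 of 27 tested and 0 of 18 in CD3E-negative cells. In CD3E-positive cells their median log2 fold changes were 0.06 and 0.03, against 0.01 for all genes, and CCL5 had 1.08 (SE 0.66, adjusted p = 0.999).

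Across 348 sums of 30 classes and dogs, the genes whose log levels ran most like each member were ranked by Pearson's r over 7668 genes, as a description, since sums of a dog share a library and classes share their naming markers. GZMA was followed by ENSCAFG00000028587 (r = 0.891), STYK1 (0.880) and NCR3 (0.879), an activating NK receptor. GZMB was followed by KLRD1 (0.865), which encodes the NK receptor CD94, GZMA (0.860) and CCL5 (0.852). PRF1 was followed by STYK1 (0.813), GZMA (0.795) and ENSCAFG00000028587 (0.781). GZMK had lower values, led by the transporter ABCB1 (0.740), KLRK1 (0.712), which encodes the receptor NKG2D, and FASLG (0.708). CTSW was led by PTGDR (0.776), a prostaglandin D2 receptor, CD7 (0.746) and SH2D1A (0.734), the adaptor SAP. Among the members, CTSW had r = 0.362 with GZMA and 0.386 with GZMB, the lowest of the 10 pairs.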

How the data were processed

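The deposited values were raw counts of unique molecular identifiers (UMIs), a genes-by-barcodes matrix for every dog, made by the authors with Cell Ranger 7.0.0 against CanFam3.1 without normalization. Whether intronic reads were included is not known. The limits on barcodes (over 200 and under 4500 genes, over 500 and under 20000 UMIs, under 10% mitochondrial counts) left 84345 of 93013. Scrublet scores per dog (scanpy 1.11.5), at an expected 0.8% doublets per 1000 barcodes, removed 3718 cells (its automatic threshold marked 1489). Platelet, erythrocyte and mixed clusters took away a further 4485. Clustering (Python 3.11.15, numpy 2.4.6) used 2000 variable genes and 30 principal components corrected across dogs by the model of Harmony. It took 20 neighbors and a resolution of 1.0 in the Leiden method, without the 5 genes and the gene lists. T and NK cell clusters were split into a CD8/NK branch, with more CD8A than CD4 in the summed cells, and a CD4 branch. Each branch was clustered again with the same settings, and these clusters were named. Marker lists came from the paper and were chosen by its authors on the same healthy dogs. Group and replicate number came from the sample records, with 1 library per dog.

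Sums over a dog's cells (25 or more) were tested, for genes of 10 or more counts, with edgeR 4.0.16 (R 4.3.3), by the quasi-likelihood test after TMM normalization, with dog as a block where sets of cells of the same dogs were compared. A call needed an adjusted p under 0.01 together with a log2 fold change beyond 0.58 either way. Odds ratios added 0.5 to each count. Shares and odds ratios were compared with exact rank-sum and sign-flip permutation tests (scipy 1.17.1), two-sided, with Benjamini-Hochberg adjustment. The members, gene lists and tests were chosen with earlier results of these data known. Named list genes were up to 4 in each direction by fold change and up to 4 not called, by level. Of 36 granule genes 28 had an entry, and of 20 transcription factors 18. The steps were tested on simulated data. Alternatives were DESeq2 1.42.0, its size factors, other gene filters, doublets kept, other thinning, seed and resolution, other gates, no dog block, a replicate block, and leaving out single dogs. The replicate numbers of healthy dogs and dogs with OS belong to different dogs and did not pair them (correlations of same-numbered dogs -0.46 to 0.46). Some small CD8/NK cell clusters are not reported here.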

Additional observations from a re-analysis of the deposited data

Results flagged for a closer look

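In 14 of 60 groups of dogs (5 genes, 6 sets of cells, 2 conditions) 1 dog stood apart by Dixon's criterion. These groups share dogs and cells, so they are not separate tests. How many of them chance would flag was not tested.

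OS dog 9 was the highest of the dogs with OS for GZMA in all leukocytes (309.6 CPM, next dog 166), in CD3E-positive lymphocytes (577.6 CPM, next 303) and in CD8A-positive T cells (1616 CPM, next 732). It was also highest for GZMB in CD8A-positive cells (2693 CPM, next 1554) and for PRF1 in CD3E-positive (31.8 CPM, next 17.5) and CD8A-positive cells (86.4 CPM, next 39.8). A CD8 effector-like cluster of 120 cells, led by DPP10, MYO16 and PMFBP1, had 113 cells from this dog, with 2848 CPM of GZMA, 3412 of GZMB, 622 of GZMK, 112 of PRF1 and 85.5 of CTSW in the summed cells.

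Healthy dog 5 stood apart for GZMB in all leukocytes (365 CPM, next healthy dog 175) and in CD3E-positive lymphocytes (510 CPM, next 273). OS dog 2 was highest for CTSW in all leukocytes (70.6 CPM, next 50.5), and OS dog 6 for GZMB in CD3-negative lymphocytes (1816 CPM, next 1039).

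In CD4-positive T cells healthy dog 7 was highest for GZMA (24.8 CPM, next 4.66), GZMB (51.0 CPM, next 13.2) and PRF1 (7.68 CPM, next 1.49), and OS dog 1 for GZMB (41.8 CPM, next 16.4). The CD4-positive cells in CD8 effector-like clusters came mostly from healthy dog 7 (97 of 173) and OS dog 1 (21), and the part of these cells in the levels was not tested.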

How the results depend on the processing

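All 5 genes stayed higher and called in CD8A-positive cells without any 1 dog, and with DESeq2, its size factors, other gene filters, doublets kept and no dog block. The count of genes there fell to 217 with the marker gate, which left 2 dogs. In CD3-negative cells that gate gave 1258 genes, -1.31 for GZMA, -1.57 for GZMB (itself called lower, adjusted p = 0.000826) and -0.75 for PRF1, and the gate without shallow clusters 1020 genes and 0.38 for GZMK. Without the dog block GZMB (adjusted p = 0.0132) and PRF1 (0.0103) missed the threshold by edgeR, and with CD79A and S100A8 off the marker list GZMB (0.0252) and PRF1 (0.0219) missed it while GZMK passed (0.00937). GZMK also passed with doublets kept (0.00844). Leaving out dogs gave 0.91 to 1.49 for PRF1 and -0.84 to -0.49 for GZMK. The causes of these changes were not tested, and the gates also differed in the dogs and cells that they left.

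The number of pairs whose co-detection differed between CD3-negative and CD3E-positive cells was 0 without thinning, 2 at 1000 UMIs, 0 with the marker gate, 7 without shallow clusters, and 1 to 2 with a dog left out. These counts rest on few CD3-negative cells with both genes of a pair. The odds ratio of GZMB with GZMK in CD3-negative cells became -0.45 (log2) without shallow clusters. At a resolution of 0.5 the NK cell-like medians were 1659 CPM for GZMA and 2104 CPM for GZMB.

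Between OS and healthy dogs no member was called under any alternative, and DESeq2 called 3 genes in all leukocytes. With the replicate block, in 14 dogs, signs turned for GZMA (-0.29), GZMK (-0.064) and PRF1 (-0.0058) in all leukocytes, for GZMA (-0.46), GZMK (-0.046) and PRF1 (-0.18) in CD3E-positive cells and for GZMA (0.025) in CD3E-negative cells. GZMA turned to 0.38 in CD3E-negative cells with the marker gate and GZMB to -0.13 with the stricter CD3-negative gate. With a dog left out the log2 fold change in all leukocytes was -0.28 to 0.52 for GZMA, 0.19 to 0.91 for GZMB, 0.04 to 0.31 for GZMK, -0.21 to 0.55 for PRF1 and -0.12 to 0.31 for CTSW. In CD3E-positive cells it was -0.21 to 0.47 for GZMA, 0.23 to 0.81 for GZMB, -0.11 to 0.23 for GZMK, -0.17 to 0.47 for PRF1 and 0.0046 to 0.33 for CTSW. In CD3E-negative cells it was -0.26 to 0.13 for GZMA, 0.04 to 0.60 for GZMB, 0.29 to 0.55 for GZMK, 0.02 to 0.72 for PRF1 and 0.07 to 0.33 for CTSW. OS dog 9 gave the lowest value of GZMA and PRF1 in all leukocytes and in CD3E-positive cells when left out.

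The difference in median share (OS minus healthy, percentage points) turned sign in CD3E-positive cells for GZMA (-0.824) and CTSW (-3.22) without thinning, for GZMK (0.846) and CTSW (-0.197) at 1000 UMIs, for GZMK with doublets kept (0.162) and without shallow clusters (0.0595), and for GZMB (6.90) and GZMK (8.02) with the marker gate. In CD3E-negative cells it turned for GZMK without thinning (1.13) and at 1000 UMIs (2.05), for CTSW at 1000 UMIs (-0.129), and with the marker gate for GZMA (-0.0203), GZMK (0.510) and CTSW (-0.933). With a dog left out it ran in CD3E-positive cells from -3.05 to 2.15 for GZMA, -5.22 to 1.66 for GZMB, -2.23 to 1.79 for GZMK, -0.377 to 1.11 for PRF1 and -0.666 to 1.01 for CTSW. In CD3E-negative cells it ran from 1.14 to 7.18 for GZMA, 4.28 to 12.3 for GZMB, -5.96 to -0.191 for GZMK, 0.492 to 2.12 for PRF1 and 2.35 to 4.32 for CTSW, limits reached without healthy dogs 1, 2 or 3 or OS dogs 1 or 3.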

Other observations

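CD8 gamma-delta-like cells, a cluster of 237 cells of which 73 came from OS dog 5, had 6.003 CPM of GZMA in the summed cells. In OS dog 5 (73 cells) and OS dog 6 (64 cells), the dogs with enough of them for a value, GZMA had 0 of 1127497 UMIs, which allows up to 2.66 CPM. NK T cell-like cells, 122 in all, had 92.0 CPM of GZMB and 22.7 CPM of GZMA.

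GZMB UMIs in neutrophil-like cells, whose median was 8.91 CPM (0 to 197, by dog), came from few cells. In healthy dog 2, 43 UMIs lay in 1 of 111 neutrophil-like cells, and in OS dog 8, 43 UMIs lay in 3 of 417. PRF1 had a UMI in 1 of 5784 neutrophil-like cells without thinning.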
